A study of Mus musculus with 2 samples.

Results

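The genes described are 8 myeloid C-type lectin receptors, taken by symbol from 31053 features: Clec12a, Clec4n, Clec4d, Clec4e, Clec5a, Clec4a1, Clec4a2 and Clec4a3. All 8 were found, each as a single entry. They were followed in 3 groups of cells from the brains of female C57BL/6 mice aged 3 months: wild-type (WT) cells, and 2 groups from a library labelled IRF8KO. IRF8 is a transcription factor needed for macrophage development, and the series sets microglia without it against wild-type microglia. Cells of 3 mice per genotype were pooled and sorted by flow cytometry with a gate that is not stated, so each genotype is 1 pool and 1 library, no value has a replicate, and genotype and library cannot be told apart. The sample titled IRF8KO carries WT in its genotype entry, and the allele and the cells that carry it are not given in the sources used. Cells of that library were divided by the share of their UMIs (unique molecular identifiers, tags that count each captured transcript a single time) in 6 neutrophil granule genes, Camp, Ngp, S100a8, S100a9, Lcn2 and Ltf. The 5007 cells under 2% are called low-granule IRF8KO cells and the 98 cells at or over 2% granule-rich IRF8KO cells. The low-granule cell nearest the threshold had 0.232% and the granule-rich cell nearest to it 2.36%.

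C-type lectin receptors are membrane proteins through which macrophages, neutrophils and dendritic cells sense sugars and lipids of microbes and material released by dying cells. Many activating receptors carry no signalling motif of their own. They pair with the adapters FcRgamma (Fcer1g), DAP12 (Tyrobp) or DAP10 (Hcst), from which the kinase SYK signals to CARD9, BCL10 and MALT1. The inhibitory receptors instead carry a motif in their own tail that recruits the phosphatases SHP-1 (Ptpn6) and SHP-2 (Ptpn11).

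All 8 genes lie on mouse chromosome 6 (GRCm38, GENCODE M21), and all are protein-coding. A block of 6 neighbours fills 368 kb: Clec4a1 (chr6:122921848-122934619, plus strand), Clec4a3 (chr6:122952515-122969875, plus), Clec4a2 (chr6:123106428-123143999, plus), Clec4n (chr6:123229843-123247021, plus), Clec4d (chr6:123262111-123275265, plus) and Clec4e (chr6:123281789-123289870, minus). Clec12a (chr6:129342691-129365303, plus) starts 6.05 Mb past that block, and Clec5a (chr6:40574894-40585821, minus) ends 82.3 Mb before it.

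Sequence before the start site is shown for 4 members, because these genes lie together or belong to 1 family and yet differed in level between the libraries, and because IRF8 is known to bind DNA with the ETS factor PU.1. The bases are from RefSeq on GRCm38.p6, 5′ to 3′ on the strand of the gene, ending just before the start site or, for Clec5a, before the first annotated exon base. Capitals mark 3 motifs, each searched on both strands. These are GAGGAA, the core of many PU.1 sites, GGAA and GAAA with any 2 bases between them, a composite element for an ETS factor with an IRF, and GAAA and GAAA with any 2 bases between them, the core of interferon-stimulated response elements. The composite and the GAGGAA core can overlap at GGAA, and the composite and the response element core can overlap at GAAA. Clec4a1 and Clec4d were far higher in low-granule IRF8KO cells than in WT cells, Clec4a3 was not, and Clec5a was moderately higher. The windows are chr6:122921598-122921847 (Clec4a1, plus), chr6:123261857-123262106 (Clec4d, plus), chr6:122952265-122952514 (Clec4a3, plus) and chr6:40585822-40586055 (Clec5a, minus).
Clec4a1: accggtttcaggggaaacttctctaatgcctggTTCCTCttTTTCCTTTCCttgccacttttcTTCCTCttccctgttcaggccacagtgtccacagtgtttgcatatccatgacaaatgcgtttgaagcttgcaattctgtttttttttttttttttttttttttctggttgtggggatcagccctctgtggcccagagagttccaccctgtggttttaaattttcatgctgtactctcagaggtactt
Clec4d: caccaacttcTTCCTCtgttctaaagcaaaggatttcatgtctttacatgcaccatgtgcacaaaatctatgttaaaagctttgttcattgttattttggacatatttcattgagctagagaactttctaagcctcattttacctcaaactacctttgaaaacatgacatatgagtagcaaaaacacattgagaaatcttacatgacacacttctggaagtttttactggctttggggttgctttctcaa
Clec4a3: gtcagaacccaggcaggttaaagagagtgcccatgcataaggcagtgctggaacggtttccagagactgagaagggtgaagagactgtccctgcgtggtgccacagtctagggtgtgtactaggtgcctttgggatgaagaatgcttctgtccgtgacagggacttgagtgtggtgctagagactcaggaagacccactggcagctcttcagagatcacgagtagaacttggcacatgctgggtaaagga
Clec5a: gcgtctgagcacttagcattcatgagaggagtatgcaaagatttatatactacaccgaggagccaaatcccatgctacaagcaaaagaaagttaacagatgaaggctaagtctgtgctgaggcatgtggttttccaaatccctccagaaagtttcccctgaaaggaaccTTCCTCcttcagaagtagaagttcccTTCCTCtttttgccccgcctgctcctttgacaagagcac

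The Clec4a1 window held 2 GAGGAA cores, at -217 to -212 and -187 to -182, and 1 composite element between them at -209 to -200, counted back from the start site. It was the composite's 1 occurrence among the 8 windows of the 7 members with an entry in the table. The Clec4d window held 1 GAGGAA core at -240 to -235, the Clec5a window held 2, at -81 to -76 and -55 to -50, and the Clec4a3 window above held none of the 3 motifs. A later start site of Clec4a3 is also annotated, and its window (chr6:122952394-122952643), which overlaps an exon and is not shown whole, held 1 GAGGAA core at -50 to -45. The Clec12a and Clec4e windows held 2 GAGGAA cores each, and the Clec4a2 window none of the 3 motifs. Over 32851 windows of the same 250 bases, 23.3% held GAGGAA, 2.30% the composite and 2.98% the response element core. A match describes letters only, and binding was not measured.

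The WT library held 3504 barcodes and 18706147 UMIs and the library labelled IRF8KO 5303 and 19998075, of which 3304 and 5105 cells were kept. The median cell had 3204.5 UMIs in WT, 2933 in low-granule and 7057.5 in granule-rich cells. The libraries shared 5 cell barcodes. Irf8 itself stood at 794 CPM (UMIs of a gene per 1000000 UMIs of the group) in WT, 669 in low-granule and 123 in granule-rich cells. The deleted part of the gene is not given, so a count of transcript ends does not check the label. Of 11 microglia markers, all passed 10 CPM in WT or low-granule cells. In the low-granule cells 7 were lower by 2-fold or more, beside 9.28% of all genes, and 4 lay between. Sall1 stood at 2.85 CPM there against 511 in WT, while Fcrls stood at 1891 against 1792. The summed level of the 11 markers was 31674, 14341 and 1849 CPM in WT, low-granule and granule-rich cells. The 11 border macrophage markers summed to 265, 3169 and 429 CPM, with Ms4a7 at 0 in WT and Cd209f at 0 in all 3 groups. Most of the WT sum came from Stab1. The 5 markers that passed 10 CPM in WT or low-granule cells were all higher by 2-fold or more in low-granule cells. Over all genes 5.61% were. Pf4, Ms4a7 and F13a1 passed through the low-granule group alone, so they had to be higher and the count supports nothing by itself. Not every marker rose: Lyve1 stood at 0.105 CPM in low-granule cells, and Folr2 at 0.211 against 1.73 in WT. The 11 neutrophil markers summed to 254, 293 and 390061 CPM, and the 7 monocyte markers to 7.98, 23.7 and 11890 CPM. Csf3r gave most of the neutrophil sum in WT and low-granule cells. Chil3 alone gave 10935 CPM of the monocyte sum in granule-rich cells. Of the 5 monocyte markers that passed 10 CPM in low-granule or granule-rich cells, 4 were higher by 2-fold or more in granule-rich cells. Over all genes 11.4% were. All 4 passed through the granule-rich group alone, so they had to be higher and their count supports nothing by itself. Ccr2 was not, at 8.30 CPM (3.34 to 17.1) against 15.6 (13.9 to 17.5) in low-granule cells. The 6 T and NK cell markers were at 0 in WT and low-granule cells. The part of these shifts in the receptor levels was not tested.

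Clec12a, an inhibitory receptor for uric acid crystals and dead cells, had no UMI in WT cells. The 5007 low-granule IRF8KO cells held 3985 Clec12a UMIs, or 210.0 CPM (exact 95% Poisson interval 203 to 217), and the 98 granule-rich cells held 319, or 378 CPM (338 to 422). All intervals cover counting error only. At 3 counts over the WT group, the low-granule level was at least 1297.7-fold higher than WT, a log2 difference of 10.34 or more. Granule-rich cells were above low-granule cells by 0.85 on the log2 scale (0.68 to 1.01). Clec12a was seen in 44.98% of low-granule and 88.8% of granule-rich cells, and the 0 of 3304 WT cells allows a share of up to 0.0908%.

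Clec4n, which encodes the mannan receptor Dectin-2, had 4 UMIs in WT cells (0.216 CPM, 0.0588 to 0.552). It had 3154 UMIs in low-granule cells (166 CPM, 160 to 172) and 15 in granule-rich cells (17.8 CPM, 9.96 to 29.3). The low-granule level was 770-fold that of WT, a log2 difference of 9.59 (8.23 to 11.47), and the granule-rich level was below the low-granule level, with a log2 difference of -3.22 (-4.06 to -2.50). Clec12a was high in both groups of the library labelled IRF8KO, whereas Clec4n was high in the low-granule group. All 15 Clec4n UMIs of the granule-rich group lay in the 11 cells of that group with over 1% of their UMIs in Apoe, a gene whose median share was 8.56% in low-granule cells and 0.0489% in granule-rich cells.

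Clec4d, the partner receptor MCL, and Clec4e, the glycolipid receptor Mincle, lie side by side and are known to act together. Clec4d had no UMI in WT cells, 338 in low-granule cells (17.8 CPM, 15.96 to 19.8) and 1 in granule-rich cells (1.19 CPM, 0.0300 to 6.61). It was at least 110.1-fold higher in low-granule than in WT cells, a log2 difference of 6.78 or more. Clec4e had 0, 5 and 3 UMIs in WT, low-granule and granule-rich cells, so its level was at or near the limit of 3 counts everywhere and no fold is given against WT. The genes of this pair therefore differed in the low-granule cells, where Clec4d was seen in 270 cells and Clec4e in 4.

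Clec5a, an activating receptor that pairs with DAP12, was present in all 3 groups. It had 2406 UMIs in WT cells (130 CPM, 125 to 135), 3551 in low-granule cells (187 CPM, 181 to 193) and 204 in granule-rich cells (242 CPM, 210 to 278). The log2 difference of low-granule from WT cells was 0.53 (0.45 to 0.60), and that of granule-rich from low-granule cells 0.37 (0.16 to 0.58). The order WT, low-granule, granule-rich was thus the same as for Clec12a, with smaller steps.

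The last 3 members belong to the DCIR family, of which DCIR1, the product of Clec4a2, is an inhibitory receptor. Clec4a1 had 74 UMIs in WT cells (3.99 CPM, 3.13 to 5.01), 802 in low-granule cells (42.3 CPM, 39.4 to 45.3) and 3 in granule-rich cells (3.56 CPM, 0.734 to 10.4). Its level in low-granule cells was 10.6-fold that in WT cells, a log2 difference of 3.40 (3.06 to 3.77). Clec4a3, its neighbour, had 2318 UMIs in WT cells (125 CPM, 120.0 to 130.2), 2444 in low-granule cells (129 CPM, 124 to 134) and 15 in granule-rich cells (17.8 CPM, 9.96 to 29.3).

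For Clec4a3 the intervals of WT and low-granule cells overlapped, with a log2 difference of 0.04 (-0.04 to 0.13). Granule-rich cells were below low-granule cells for Clec4a1, with a log2 difference of -3.57 (-5.85 to -2.02), and for Clec4a3, with -2.86 (-3.69 to -2.13).

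Clec4a2 had 2488 UMIs in WT cells (134 CPM, 129 to 140), 2436 in low-granule cells (128 CPM, 123 to 134) and 394 in granule-rich cells (467 CPM, 422 to 516). WT and low-granule cells differed by -0.06 on the log2 scale (-0.15 to 0.02), a difference that turned to 0.19 under TMM scaling (trimmed mean of M-values), 0.08 without mitochondrial and ribosomal protein genes in the total and 0.07 without Apoe in it. Granule-rich cells were 3.64-fold above low-granule cells, a log2 difference of 1.86 (1.71 to 2.02). Of its 60-base words in the last 1000 bases of its transcripts, 5.92% also occur in other genes. These include Clec4a4 and Clec4b1, but most are not C-type lectin genes. How reads from such words were counted was not checked. For Clec4n the share of such words was 0.0684%, and the other 6 members had none.

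**Figure D1:**
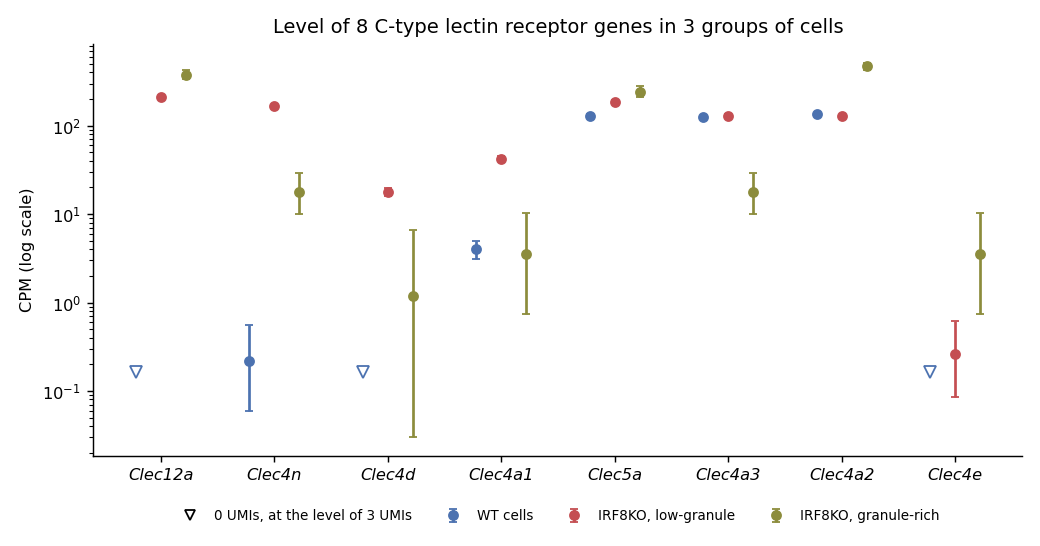
Level of each receptor gene in CPM (vertical, log scale) in WT, low-granule IRF8KO and granule-rich IRF8KO cells, 1 library per genotype; points are group levels, bars exact 95% Poisson intervals, open triangles groups with 0 UMIs drawn at the level of 3 UMIs. Clec12a, Clec4n, Clec4d and Clec4a1 were far higher in low-granule than in WT cells, while Clec4a2 and Clec4a3 stood between 125 and 134 CPM in both.

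Of the 8 receptors, 7 had at least 10 CPM in WT or low-granule cells, all but Clec4e. Of the 8, 4 (Clec12a, Clec4n, Clec4d and Clec4a1) were higher by 2-fold or more in low-granule than in WT cells, 0 were lower, and 3 lay between. Of the 8859 genes with that level, 5.61% were higher and 9.28% lower by 2-fold or more. All 4 higher receptors passed the minimum level through the low-granule group alone, so they had to differ and their count supports nothing by itself. The median log2 difference over the 7, 3.40, rests on the same selection and supports nothing either. Over all 8859 genes the median was -0.28. Under TMM scaling that median shifted by 0.26. Clec5a, Clec4a2 and Clec4a3, which passed the minimum in both groups, stood above the all-gene median under every scaling and cell selection tried for this comparison. The other 4 had to, by their selection. A scaling factor moves all genes alike, so the same place under several scalings supports nothing further. Summed over the 8 receptors, the level was 393 CPM in WT, 881 in low-granule and 1132 in granule-rich cells.

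Between granule-rich and low-granule cells, which come from 1 library, 7 of the 8 again had at least 10 CPM in a group. Clec4a2 was higher by 2-fold or more, against 11.4% of 8798 genes. Clec4n, Clec4a1, Clec4a3 and Clec4d were lower by 2-fold or more, against 44.9% of genes, so that a gene lower in granule-rich cells was common. Clec4a1 and Clec4d passed the minimum through the low-granule group alone, so they had to be lower. Clec12a and Clec5a lay between. The median over all genes was -0.85 and moved by 0.76 under TMM scaling, where 20.7% of genes were higher and 23.9% lower. There Clec12a reached 1.53 and Clec5a 1.05, so 3 receptors passed 2-fold.

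In the 87 granule-rich cells with at most 1% of UMIs in Apoe, a range chosen after the values were seen, Clec4n, Clec4a1, Clec4a3 and Clec4d had 0 UMIs. Clec12a had 259 UMIs there (390 CPM, 344 to 440), Clec4a2 350 (527 CPM, 473 to 585), Clec5a 156 (235 CPM, 199 to 275) and Clec4e 2. The low-granule level was at least 36.8-fold higher than in these cells for Clec4n, 28.5-fold for Clec4a3, 9.36-fold for Clec4a1 and 3.94-fold for Clec4d, taken at 3 counts over the 87 cells.

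Detection was compared at equal depth, with each cell of at least 2000 UMIs thinned to 2000 at random. This used 3019 WT, 4509 low-granule and 97 granule-rich cells and left out 285, 498 and 1. Clec12a was then seen in 32.0% of low-granule cells (exact binomial 95% interval 30.6 to 33.4), 53.6% of granule-rich cells (43.2 to 63.8) and 0 WT cells, which allows up to 0.0994%. Clec4n was seen in 24.0% of low-granule cells (22.8 to 25.3), 1.03% of granule-rich cells and 0.0331% of WT cells. Unthinned, Clec4n was seen in 34.9%, 4.08% and 0.121%. Free RNA can give UMIs to cells that do not express a gene, and its part here was not tested. Apoe had a UMI in 97 of the 98 granule-rich cells, and in 11 of them it held over 1% of the UMIs. The source of these Apoe UMIs was not tested. Free RNA comes from the cells of the same library, so the WT shares do not measure it in the library labelled IRF8KO. For Clec4n, the granule-rich share of 1.03% is 1 of 97 cells (0.0261 to 5.61). All Clec4n UMIs of that group lay in its 11 cells with over 1% of UMIs in Apoe. The 87 granule-rich cells low in Apoe had none, unthinned, where 0 of 87 cells allows up to 3.45%. Clec12a was seen more often in granule-rich than in low-granule cells, so no group of that library had a low share of it. The level of free RNA was not estimated for either gene.

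Clec5a was seen in 22.3% of WT (20.8 to 23.8), 31.0% of low-granule (29.6 to 32.4) and 35.1% of granule-rich cells (25.6 to 45.4). Its share in granule-rich cells overlapped that in low-granule cells. Clec4a2 was seen in 24.1%, 22.8% and 62.9% of WT, low-granule and granule-rich cells, and Clec4a3 in 21.4%, 21.5% and 0%, where 0 of 97 cells allows up to 3.09%. Clec4a1 was seen in 0.662%, 7.25% and 1.03%. Clec4d was seen in 2.97% of low-granule cells and in 0 cells of the other groups, and Clec4e in 0.0887% of low-granule and 1.03% of granule-rich cells. Unthinned, where granule-rich cells are deeper, the shares in WT, low-granule and granule-rich cells were 40.2%, 44.6% and 75.5% for Clec5a, 42.4%, 34.9% and 91.8% for Clec4a2, and 38.3%, 31.7% and 5.10% for Clec4a3.

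**Figure D2:**
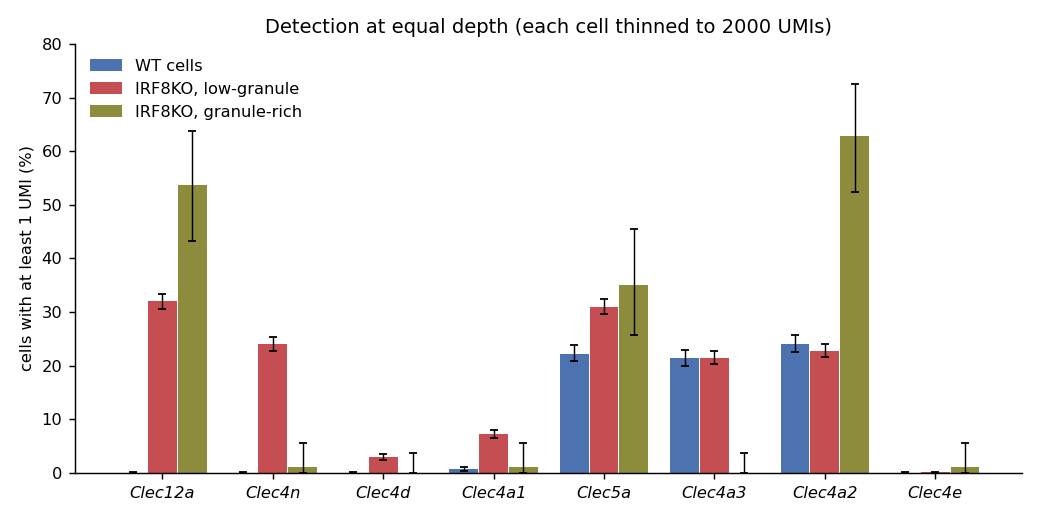
Share of cells with at least 1 UMI of each receptor gene (vertical, percent) after thinning every cell to 2000 UMIs, in 3019 WT, 4509 low-granule IRF8KO and 97 granule-rich IRF8KO cells; bars are shares and lines exact 95% binomial intervals. Clec4a3 was seen in near-equal shares of WT and low-granule cells (21.4% and 21.5%) and in none of the granule-rich cells, whereas Clec4a2 was seen in 62.9% of the granule-rich cells.

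At this depth 54.0% of WT cells showed at least 1 of the 8 receptors, against 80.3% of low-granule and 90.7% of granule-rich cells. At least 2 receptors were seen in 13.3% of WT (12.2 to 14.6), 43.5% of low-granule (42.0 to 44.9) and 52.6% of granule-rich cells (42.2 to 62.8). If each gene were detected independently of the others at its own share, 13.3%, 43.4% and 52.1% of cells would show 2 or more. The receptors were thus met together about as often as their separate shares give.

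Single pairs departed from that. In low-granule cells, 21 of the 28 pairs had at least 5 expected cells with both genes, and the ratio of observed to expected cells had a median of 1.02, with 13 pairs above 1. Clec4a1 and Clec4a3, neighbours on the chromosome, had the highest ratio: 116 cells with both against 70.3 expected, a ratio of 1.65. Clec4a3 was seen in 35.5% of cells with Clec4a1 and in 20.4% of those without it. Clec4n and Clec4d followed with 44 cells against 32.2 expected, a ratio of 1.37.

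Clec12a stood on the other side. It met Clec4d in 28 cells against 42.9 expected (ratio 0.653), Clec4n in 300 against 346 (0.866) and Clec4a1 in 90 against 105 (0.860). With Clec5a and Clec4a2 its ratio was 1.02 for each. All these associations were weak, with phi coefficients (the correlation of presence and absence over 4509 cells of 1 library) from -0.05 to 0.10. In WT cells 3 pairs had enough expected cells, with ratios from 0.953 to 1.03. In granule-rich cells 3 pairs did, from 0.889 to 0.988.

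**Figure D3:**
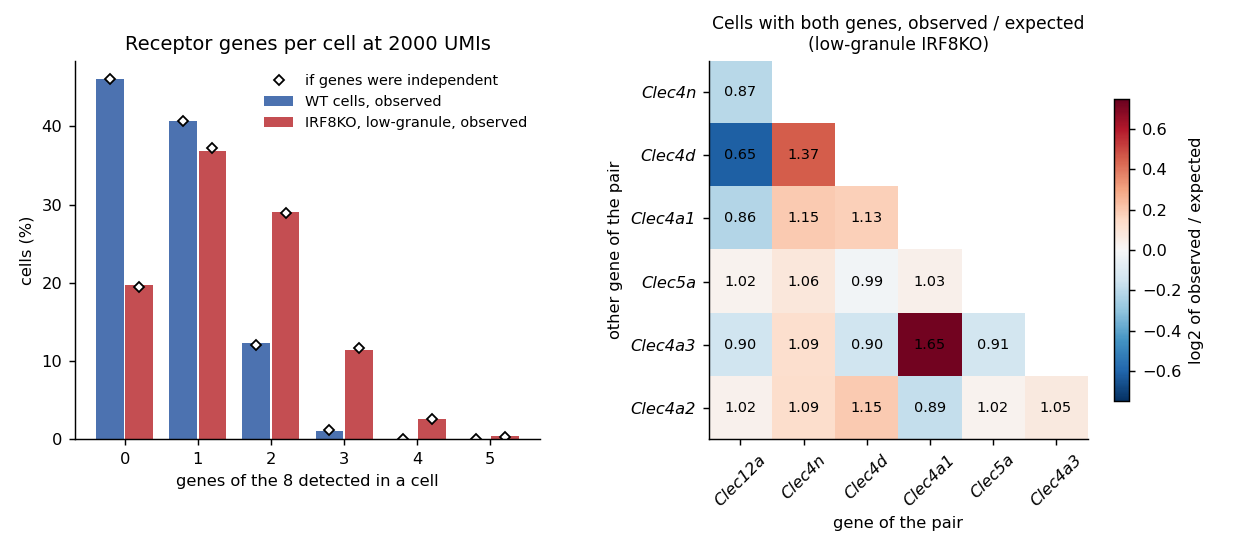
Left, share of cells (percent) by the number of the 8 receptor genes detected at 2000 UMIs in WT and low-granule IRF8KO cells, with open diamonds for the shares expected if the genes were independent; right, ratio of observed to expected low-granule cells with both genes of a pair, coloured by its log2. Observed and independent shares nearly coincide, while single pairs run from 0.653 (Clec12a with Clec4d) to 1.65 (Clec4a1 with Clec4a3).

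The receptors were then followed across low-granule cells ordered by microglia marker UMIs of 2000, in 5 ranges of 796 to 1075 cells. Clec12a was higher toward the top of this order, from 111 CPM (96.7 to 128) in cells with 2 to 20 marker UMIs through 185, 210 and 302 to 291 CPM (266 to 319) in cells with 38 to 95. Clec4n went the other way, from 224 CPM (203 to 247) through 170, 160 and 128 to 119 CPM (103 to 137). Clec4a1 went from 66.8 CPM (55.6 to 79.8) to 16.5 (10.9 to 24.0), Clec4d from 37.0 (28.7 to 46.9) to 4.27 (1.72 to 8.81) and Clec4a3 from 153 (135 to 172) to 96.5 (82.0 to 113). Clec4a2 stayed between 132 and 137 CPM, and Clec5a ran from 177 (158 to 197) to 212 (190 to 235). So the receptors that were raised most against WT did not vary alike among the low-granule cells.

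Depth moved with this order, with a median of 3344 UMIs before thinning in the lowest range and 2735 in the highest. Within the cells at or under the median depth, Clec12a ran from 116 to 318 CPM, Clec4n from 224 to 123, Clec4a1 from 73.3 to 14.1 and Clec4d from 40.2 to 3.77. Within the deeper cells they ran from 108 to 241, from 225 to 111, from 62.9 to 20.8 and from 35.0 to 5.21. Each of the 4 thus kept its direction within both depth classes. By depth itself, Clec12a was at 311 CPM (287 to 337) in the fifth of low-granule cells with fewest UMIs and at 192 (182 to 202) in the fifth with most, Clec4a1 at 21.1 (15.2 to 28.7) and 48.1 (43.4 to 53.2), and Clec4n at 127 (111 to 144) and 179 (170.1 to 189).

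By border macrophage marker UMIs, Clec4n ran from 116 CPM (104 to 129) in cells with 0 to 3 of 2000 to 223 CPM (201 to 247) in cells with 10 to 60. Clec4a2 ran from 124 (111 to 137) to 156 CPM (138 to 177), with intervals that did not overlap. Median depth moved with this order too, from 2874.5 to 3226 UMIs, and its part in these values was not tested. Clec12a had 229 (212 to 248) and 209 CPM (187 to 232) in the lowest and highest ranges, with a lower level of 184 (165 to 204) in the fourth. Clec5a had 198 and 207 CPM and Clec4a1 39.0 and 41.7 in the end ranges, with overlapping intervals.

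**Figure D4:**
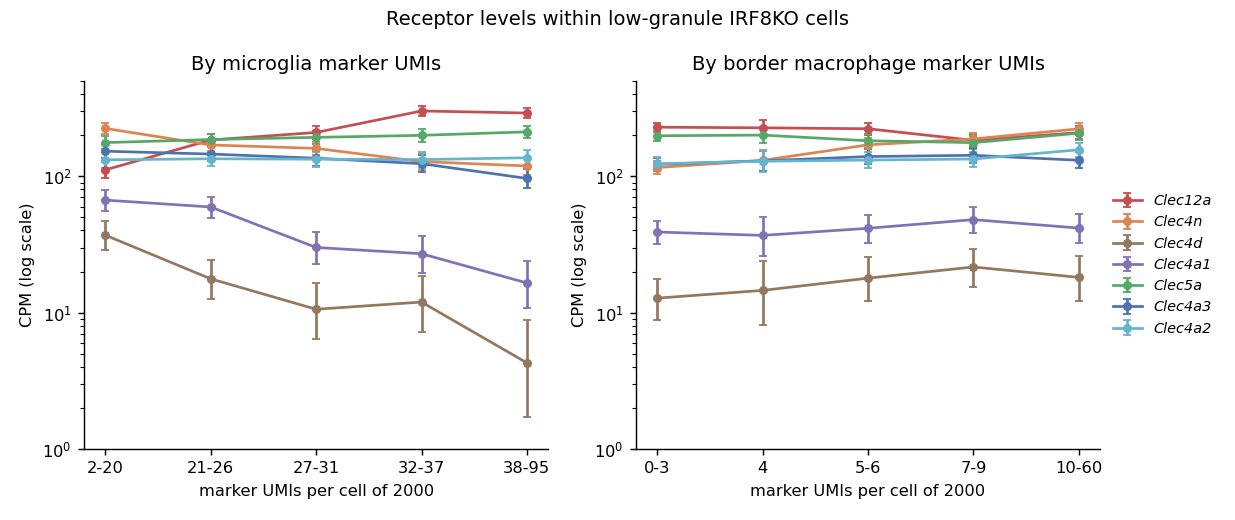
Level of 7 receptor genes in CPM (vertical, log scale) within low-granule IRF8KO cells, by the microglia marker UMIs (left) and border macrophage marker UMIs (right) of each cell thinned to 2000 UMIs; points are summed levels and bars exact 95% Poisson intervals. From the lowest to the highest microglia marker range Clec12a went from 111 to 291 CPM and Clec4d from 37.0 to 4.27.

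Low-granule cells with many interferon response UMIs formed a small set, in which Clec4a1 and Clec4a3 were higher and Clec4n and Clec4a2 lower than in cells with none. In the 88 low-granule cells with 10 to 73 UMIs of 12 such genes among 2000, a range chosen after the values were seen, Clec4a1 was at 119 CPM (73.9 to 182) against 37.0 (32.2 to 42.2) in the 2962 cells with none. Clec4a3 was at 205 CPM (143 to 283) against 126 (117 to 135). Clec4n and Clec4a2 were both at 68.2 CPM (35.2 to 119) there, against 166 (156 to 177) and 134 (125 to 144). In the 36 low-granule cells with under 1% of UMIs in Apoe, Clec12a was at 72.9 CPM (33.3 to 138) and Clec4n at 8.10 (0.205 to 45.1), while Clec5a was at 267 (184 to 376).

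The genes most alike in detection differed between the receptors. Likeness was the phi coefficient over 4509 thinned low-granule cells, for members and genes seen in at least 5% of them. Clec12a was most like Crybb1 (0.092), Sparc (0.091) and Cp (0.086), Clec4n most like Ms4a7 (0.12), Lyz2 (0.094) and Fxyd5 (0.077), and Clec4a1 most like Cd52 (0.12), Pld4 (0.099) and Clec4a3 (0.095). Clec4a3 was most like Ccl12 (0.10), Clec4a1 (0.095) and Ms4a7 (0.084). For Clec4a2 the highest were Atp8a1 (0.061), Usp36 (0.052) and Klf6 (0.052), and for Clec5a Ndufa12 (0.057), Pnp (0.053) and Cd83 (0.052). All of these are weak, in sparse counts of 1 library.

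Within the block, the expressed genes lay beside genes with few UMIs. Clec4a4 had 2 UMIs in WT and 7 in low-granule cells and Clec4b1 had 2 and 10. Clec4b2 had 0 in both and 32 in granule-rich cells (37.96 CPM, 25.97 to 53.6). Of the 32 protein-coding genes within 200 kb of a member, members left out, 7 passed 10 CPM in WT or low-granule cells, 1 of them was higher by 2-fold or more and 0 lower, with a median of 0.05, beside 5.61% higher, 9.28% lower and a median of -0.28 over all genes. The higher gene, Slc2a3, passed through the low-granule group alone. The 7 included the glucose transporter gene Slc2a3 (log2 difference 1.06), the complement receptor gene C3ar1 (0.90), Clec2d (0.63) and Ssbp1 (-0.20).

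**Figure D5:**
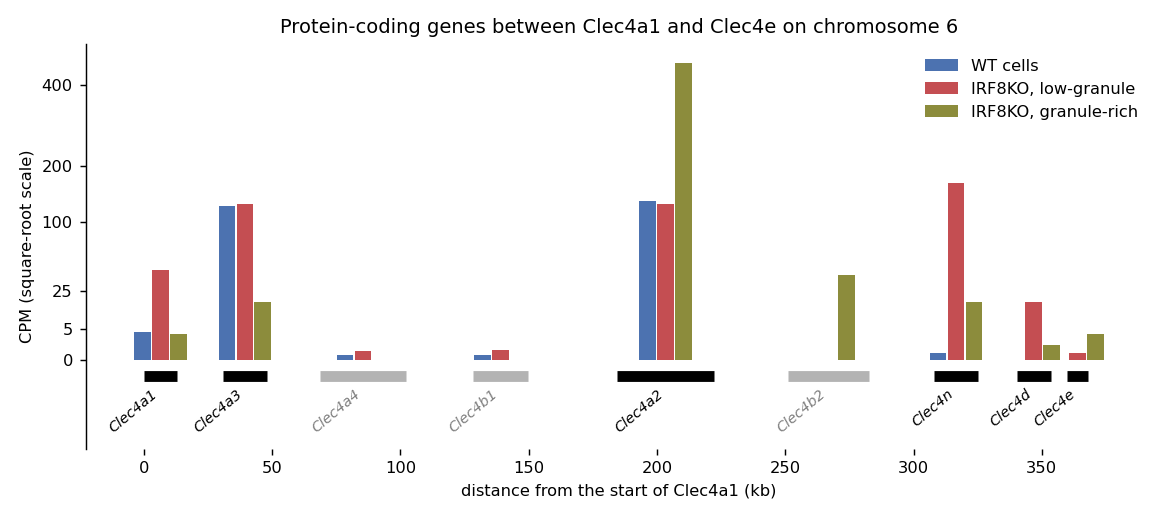
Protein-coding genes from Clec4a1 to Clec4e on chromosome 6 (horizontal, kb from the start of Clec4a1; black boxes are the 6 receptor genes described, grey boxes the other 3) with their level in CPM (vertical, square-root scale) in WT, low-granule IRF8KO and granule-rich IRF8KO cells. Clec4a3 and Clec4a2 had tall bars in WT cells, Clec4n and Clec4d were highest in low-granule cells, and Clec4b2 had UMIs in granule-rich cells but none in the other groups.

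The adapters that many activating receptors need were present in all groups. Tyrobp was at 2381 CPM in WT, 3859 in low-granule and 1508 in granule-rich cells, and Hcst at 21.2, 62.1 and 140.0 CPM. Of 20 signalling genes, 18 passed 10 CPM, 1 was higher by 2-fold or more in low-granule than in WT cells (Hcst, log2 difference 1.55, 1.38 to 1.71) and 0 were lower. Over all genes 5.61% were higher and 9.28% lower, and the median of the 18 was -0.23, beside -0.28. Tyrobp differed by 0.70 and Map3k7 by -0.71.

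Other C-type lectin-like receptors were mostly under 10 CPM. Of 43, 8 passed 10 CPM, 5 were higher by 2-fold or more in low-granule than in WT cells and 2 lower, with a median of 4.14, beside 5.61% higher, 9.28% lower and a median of -0.28 over all genes. Of the 5 higher genes, 4 passed the minimum through the low-granule group alone (Colec12, Klrb1b, Klra17 and Cd72), so they had to differ. Mrc2, among the lower genes, passed through WT alone and had to differ too. These counts and the median support nothing by themselves. The scavenger receptor Colec12 went from 0 UMIs to 57.4 CPM, Klrb1b from 0 to 24.0 and Klra17 from 0 to 10.7, while Mrc2 went from 32.1 CPM to 0 UMIs. These 4 are at least 355-fold, 148-fold and 66.1-fold higher and at least 203-fold lower. Of 19 cytokine and early genes reported to follow CARD9 or SYK signalling, 12 passed, 5 were higher and 2 lower, with a median of 0.38, beside the same 5.61%, 9.28% and -0.28 over all genes. Of the 5 higher genes, 4 passed through the low-granule group alone (Cxcl2, Cxcl1, Il1b and Tnf), and Il6, among the lower genes, through WT alone. They had to differ, so these counts and the median support nothing by themselves either. Cxcl2 went from 0 UMIs to 50.5 CPM and Cxcl1 from 0 to 16.2, log2 differences of 8.29 and 6.64 or more. The cytokine gene Il1b was higher by 2.54 on the log2 scale, and Il6 was lower, with a log2 difference of -5.63.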

How the data were processed

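Single-cell transcripts were measured in 2 droplet libraries of sorted brain cells. The authors deposited whole-number UMI counts per gene and barcode, written by software version 3.1.0 per the file headers. Cell Ranger 3.1, bcl2fastq, Scanpy and mm10 are named in the submitters' processing notes, without their roles. The labels' protocols also name a full-length low-input kit, which is not a droplet method. Groups came from the sample titles.

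Barcodes under 1000 UMIs or 500 genes, or over 10% mitochondrial UMIs, were left out. Of 5303 barcodes in the library labelled IRF8KO 5105 were kept, and of 3504 in WT 3304. UMIs were summed over the cells of a group and divided by the group's total (18543061 in WT, 18980263 in low-granule and 842948 in granule-rich cells) to give CPM, where every captured transcript counts a single time and length does not enter. Intervals are exact 95% Poisson, binomial or conditional binomial ones and cover counting error only. With 1 library per group there was no test, and no p-value was computed. A gene was counted as higher or lower past 2-fold with at least 10 CPM in a group, and a level of 0 was set to 3 counts over the group for a bound. Expected cells with both genes are the product of their shares.

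Python 3.11.15, scipy 1.17.1, scanpy 1.11.5 and, for TMM factors only, edgeR 4.0.16 were used. The scripts were tested on simulated data. The doublet caller in scanpy marked 0 WT and 3 IRF8KO cells (0.0588%), too few for a working call, so an alternative left out the 87 and 208 cells of highest score. Positions came from GENCODE M21, which matched 31011 of 31053 identifiers. Named genes were the 8 members and Irf8 and the 4 genes per list with the largest log2 difference. The 3 genes per member most alike in detection were named too. Sall1, Fcrls, Apoe, Ms4a7, Pf4, F13a1, Cd209f, Stab1, Lyve1, Folr2, Csf3r, Chil3, Ccr2, Clec4a4, Clec4b1 and Clec4b2 were named outside that rule, after their values were seen. A gene that this rule picked is not reported here. The members and lists were chosen with earlier results of these data known. Alternatives covered scaling, pseudocount, minimum level, cell filters, thinning depth and the granule threshold.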

Additional observations from a re-analysis of the deposited data

Results flagged for a closer look

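The barcodes left out by the cell filter, 200 of the WT and 198 of the other library, enter no comparison, and for 3 receptors the 95% Poisson interval there lay wholly above that of the left-out WT barcodes. Clec12a had 53 UMIs in the IRF8KO barcodes (303 CPM) and 0 in the WT ones, where 3 counts would be 18.4 CPM. Clec4n had 20 UMIs (114 CPM) against 0. Clec5a had 30 UMIs (172 CPM) against 10 (61.3 CPM). Clec4a2 (26 against 13 UMIs), Clec4d (3 against 0) and Clec4a1 (2 against 0) were also higher, with intervals that overlapped.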

How the results depend on the processing

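The count of receptors higher by 2-fold or more in low-granule than in WT cells was 4 under each of the 13 alternatives. Between granule-rich and low-granule cells the count of 1 became 3 under TMM scaling, which lifts all genes alike, and 2 without a minimum level, where Clec4e enters, and stayed within 1.5 times under 12 others. The share of low-granule cells with 2 or more receptors, 43.5% at 2000 UMIs, was 18.1% at 1000 UMIs, 62.0% at 3000, 63.0% without thinning and 41.9% without the 5% of cells with most UMIs. The median ratio over pairs, 1.02, was 1.22 without thinning, where depth differs between cells. For single receptors, low-granule against WT, the log2 difference ran from 7.72 to 10.60 for Clec12a, 7.10 to 9.84 for Clec4n, 4.23 to 7.04 for Clec4d, 3.12 to 3.66 for Clec4a1, 0.52 to 0.78 for Clec5a, 0.02 to 0.30 for Clec4a3 and -0.10 to 0.19 for Clec4a2; the lowest values of the first 3 came with a pseudocount of 1 CPM. For granule-rich against low-granule cells it ran from -5.20 to -2.55 for Clec4n, -5.49 to -2.31 for Clec4a1, -4.83 to -2.18 for Clec4a3, -4.97 to -1.03 for Clec4d, 0.68 to 1.53 for Clec12a, 0.20 to 1.05 for Clec5a and 1.69 to 2.54 for Clec4a2. The -5.20 and -4.83 came from the granule-rich cells low in Apoe, where Clec4n and Clec4a3 had 0 UMIs. They are bounds at 3 counts. The -1.03 is such a bound too, over the 64 granule-rich cells left without the 5% of cells with most UMIs. There Clec4d was lower by at least that much. The -2.31 of Clec4a1 came from the same setting. The setting that leaves out low-Apoe or high-Apoe cells was added after seeing the data.

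No paired analysis was possible because each genotype is 1 library with no replicate number. No replicate was left out either, for the same reason. Counting error limits Clec4e, with 8 UMIs in all, and the granule-rich values, which rest on 98 cells.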
